A study of Mus musculus with 8 samples.

Results

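The genes of mitochondrial protein import were followed in mouse embryonic stem cells (ESCs) treated with a MYC inhibitor and then released from it. The group was set by name: all symbols that start with Timm or Tomm and go on with a digit, together with Timmdc1, Pmpca, Pmpcb, Samm50, Chchd4, Gfer, Grpel1, Grpel2, Mtx1, Mtx2 and Oxa1l. It holds 34 of the 18193 genes that have a probe set of 1 gene symbol, and each gene is represented by its probe set with the highest mean over all 8 arrays. Tomm5 and Tomm6, whose probe sets also carry the symbol of another gene, were not analysed here. No filter on level was applied, so every one of the 34 genes was tested.

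Nearly all mitochondrial proteins are made in the cytosol and have to be carried across one or both membranes of the organelle. The TOM complex is the common entry gate of the outer membrane. Behind it, the TIM23 complex and its ATP-driven motor take proteins with a cleavable presequence into the matrix, the small TIM chaperones of the intermembrane space guide membrane proteins, the TIM22 complex inserts carrier proteins, the SAM complex inserts beta-barrel proteins, and a disulfide relay folds small proteins with cysteine pairs. MYC, which binds DNA with its partner MAX, is known as an activator of genes of growth and of mitochondrial biogenesis.

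The labels describe mouse ESCs and name no line, genotype or clone. All cells were grown without feeders or serum in 2i medium, with LIF, the MEK inhibitor PD0325901 at 1 μM and the GSK3 inhibitor CHIR99021 at 3 μM. The DMSO group (3 arrays) received the solvent alone for 60 h, the MYCi group (2 arrays) received 10058-F4, a small molecule that disrupts the MYC-MAX pair, at 64 μM for 60 h, and the Resc group (3 arrays), called released cells here, received 64 μM for 60 h and was then kept in 2i medium without it for 48 h. Because 2 arrays stand for the inhibitor, that group limits the precision, and since the labels do not tie replicates to separate cultures, the p-values cover the spread among these particular arrays alone, and that spread may be technical.

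Over all genes, arrays of 1 group correlated with r of at least 0.998. All 8 ESC markers examined lay between 9.94 and 13.54 (log2 level) on every array, and with the inhibitor 3 of them were called higher and 2 lower. Over all genes 41.5% were called with the inhibitor at a limma adjusted p under 0.05 (19.2% higher and 22.3% lower). Without the genes below the 30th percentile of level it was 58%. Between released and DMSO arrays 8.66% of all genes were called. Of 6 trophectoderm markers, 3 rose with the inhibitor, and 1 was called higher than DMSO after release. The mean log2 level over all 6 was 4.48 to 4.57 with DMSO, 5.97 to 6.14 with the inhibitor and 4.91 to 4.93 after release. Of 7 fibroblast, 5 endoderm, 3 mesoderm and 4 neural markers 0 rose with the inhibitor, and 1 fibroblast, 1 endoderm and 1 neural marker fell (1 neural marker was lower than DMSO after release too), with list means from 3.33 to 4.65 on all arrays. The log2 level at the 3′ end of Gapdh minus that at its 5′ end, which tracks how intact the RNA is, was -0.15 and -0.22 on the inhibitor arrays and between -0.13 and -0.11 on the others. The same difference for Actb was 0.25 and 0.29 on the inhibitor arrays and 0.25 to 0.28 on the others. The part of the trophectoderm markers and of RNA integrity in the results was not tested. In these bulk samples fewer cells of a type and less RNA per cell cannot be told apart, and the normalization makes each value relative to the other genes of its array.

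With the inhibitor, import genes were mostly lower. Of the 34 genes, 20 fell and 2 rose at a limma adjusted p under 0.05, which is 64.7% of them, where 41.5% of all genes tested passed the same threshold (22.3% lower and 19.2% higher). The median log2 change was -0.35 over the import genes and -0.06 over all genes. These genes are well expressed: their median log2 level was 9.16, against 5.68 for all genes, and without the genes below the 30th percentile of level 58% of the genes left passed (30.6% lower and 27.4% higher), beside 23 of the 33 import genes left. Most falls were moderate: Timm21 and Tomm40l fell by at least 2-fold, a size that 4.84% of all genes reached in either direction, and the other 18 falls were smaller. The values of the inhibitor and DMSO arrays did not overlap for 23 genes that were lower (35% of all genes) and 4 that were higher (25.5% of all genes).

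**Figure D1:**
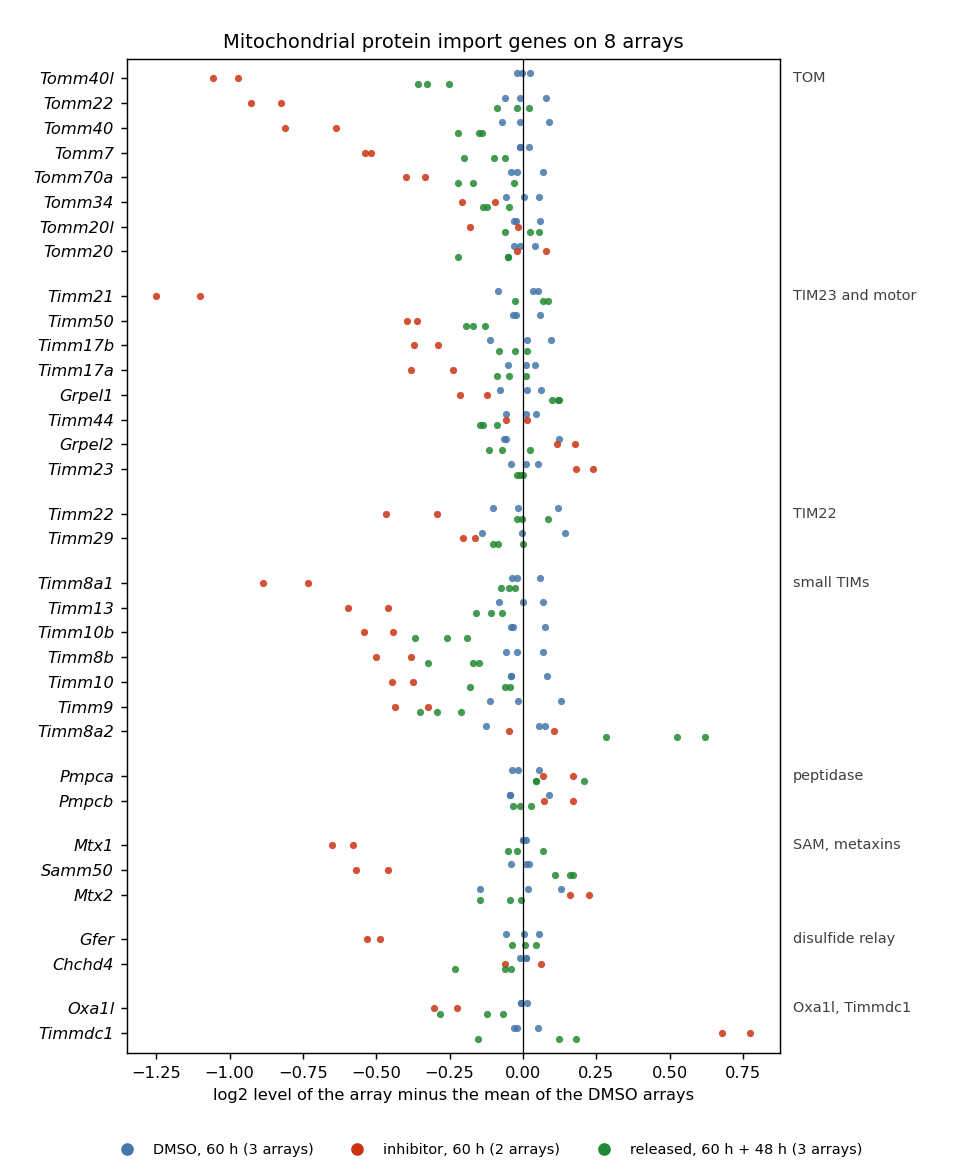
Log2 level of each import gene on each array minus the mean of the DMSO arrays, 1 row per gene, sorted within complexes named at the right. Blue points are the 3 DMSO arrays, red points the 2 inhibitor arrays and green points the 3 released arrays; the inhibitor arrays lie left of the DMSO arrays for the 20 genes that fell, and those of Timmdc1 lie to the right.

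At the outer membrane entry gate, 5 of 8 measured TOM genes fell and 0 rose. Over all genes 22.3% were lower and 19.2% higher, and without low-level genes 30.6% and 27.4%. Tomm22, the central receptor that holds the complex together, lay at 10.12, 10.26 and 10.17 on the DMSO arrays and at 9.36 and 9.25 on the inhibitor arrays. It fell 1.84-fold (log2 change -0.88 ± 0.071, moderated standard error; limma adjusted p = 6.82e-06). Tomm40, the beta-barrel pore itself, had 10.15, 10.31 and 10.21 with DMSO against 9.58 and 9.41 with the inhibitor, a fall of 1.66-fold (-0.73 ± 0.077; limma adjusted p = 4.24e-05). For both genes the inhibitor arrays lay well below the lowest DMSO array. Tomm40l, a second pore isoform, went down 2.02-fold, from 8.26, 8.25 and 8.29 to 7.21 and 7.30 (-1.01 ± 0.064; limma adjusted p = 1.34e-06). The small subunit gene Tomm7 (-0.53 ± 0.065) and Tomm70a, the receptor for precursors handed over by cytosolic chaperones (-0.37 ± 0.074), fell too.

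The TOM receptor gene Tomm20 was the highest of all import genes and was not called. It lay at 12.53, 12.55 and 12.60 with DMSO and at 12.54 and 12.64 with the inhibitor, so the groups overlapped (0.03 ± 0.073; limma adjusted p = 0.769). Its relative Tomm20l lay between 3.40 and 3.64 on all 8 arrays, not far above the Trpn control probe sets at 2.15 to 2.95. Tomm34, a cytosolic cochaperone of import, was lower on both inhibitor arrays without passing the threshold (-0.15 ± 0.068; limma adjusted p = 0.105). It passed under 2 of the 18 alternatives of the closing section.

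The presequence pathway of the inner membrane was divided. Among 8 measured genes of the TIM23 complex and its motor 4 fell and 1 rose. Of all genes tested 22.3% were lower and 19.2% higher (30.6% and 27.4% without low-level genes). Timm21, which links TIM23 with TOM and with assembling respiratory complexes, showed the largest fall of all import genes. Its values were 7.05, 7.07 and 6.93 with DMSO and 5.77 and 5.92 with the inhibitor, 2.26-fold lower (-1.17 ± 0.076; limma adjusted p = 1.56e-06). The receptor gene Timm50 fell less (-0.38 ± 0.062; limma adjusted p = 0.00073).

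Timm17a and Timm17b, the alternative partners of the TIM23 channel, fell by nearly the same amount. Timm17a lay at 9.97, 10.06 and 10.03 with DMSO and at 9.78 and 9.64 with the inhibitor (-0.31 ± 0.069), and Timm17b at 8.34, 8.55 and 8.47 against 8.08 and 8.16 (-0.33 ± 0.075). Timm23, the channel protein, was slightly higher with the inhibitor, at 11.03, 11.12 and 11.08 with DMSO and 11.31 and 11.25 with the inhibitor (0.21 ± 0.061; limma adjusted p = 0.0214). That call ended without DMSO replicate 1 (adjusted p = 0.0619), inhibitor replicate 1 (0.121) or inhibitor replicate 2 (0.0546). The calls of Timm17a without inhibitor replicate 2 (0.0586) and of Timm17b without inhibitor replicate 1 (0.0508) ended as well. The motor anchor gene Timm44 was not called (-0.02 ± 0.063; limma adjusted p = 0.828).

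The nucleotide exchange factors of the import motor, Grpel1 and Grpel2, were not called. Grpel1 lay at 9.41, 9.55 and 9.50 with DMSO and at 9.36 and 9.27 with the inhibitor (-0.17 ± 0.066; limma adjusted p = 0.0684). For Grpel2 the values were 8.55, 8.73 and 8.54 against 8.78 and 8.72 (0.14 ± 0.078; limma adjusted p = 0.174), with overlap between the groups. Grpel1 passed as lower under 5 of the 18 alternatives of the closing section, among them without DMSO replicate 1 (adjusted p = 0.0425). With the mean of its probe sets Grpel2 was called higher (0.32 ± 0.075; limma adjusted p = 0.00648).

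Of the 7 small TIM chaperone genes 6 fell and 0 rose, where 22.3% of all genes were lower and 19.2% higher. Without low-level genes these shares were 30.6% and 27.4%. Timm8a1, the partner of Timm13, lay at 9.66, 9.73 and 9.64 with DMSO and at 8.79 and 8.94 with the inhibitor, 1.75-fold lower (-0.81 ± 0.068; limma adjusted p = 9.12e-06). Timm8b, its autosomal relative, went from 10.03, 10.12 and 9.99 to 9.67 and 9.55 (-0.44 ± 0.078; limma adjusted p = 0.00126). All inhibitor arrays of both genes were below all DMSO arrays.

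Timm9 and Timm10 form the main carrier chaperone, and Timm10b docks it on TIM22. Timm10 had 9.75, 9.87 and 9.75 with DMSO and 9.42 and 9.35 with the inhibitor (-0.41 ± 0.072; limma adjusted p = 0.00116), and Timm10b had 9.33, 9.45 and 9.34 against 8.93 and 8.83 (-0.49 ± 0.076; limma adjusted p = 0.0005). Timm9 went from 7.12, 7.27 and 7.03 to 6.82 and 6.71 (-0.38 ± 0.085; limma adjusted p = 0.00501). Without inhibitor replicate 2 the call of Timm9 ended (adjusted p = 0.0525). Timm13 fell by a similar amount (-0.52 ± 0.073). The exception was Timm8a2, at 5.16, 5.14 and 4.96 with DMSO and 5.19 and 5.04 with the inhibitor (0.03 ± 0.11; limma adjusted p = 0.859). Timm8a1 and Timm8a2 are close copies, and the probe set of Timm8a2 is of a type that can match more than 1 transcript, so its values are uncertain.

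In the TIM22 complex, the channel gene Timm22 fell (-0.38 ± 0.084; limma adjusted p = 0.00482), a call that ended without inhibitor replicate 2 (adjusted p = 0.0574), and Timm29 was not called (-0.18 ± 0.085; limma adjusted p = 0.117). Timm29 passed as lower under 4 of the 18 alternatives of the closing section, among them without DMSO replicate 3 (adjusted p = 0.0319).

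In the machinery that builds beta-barrels into the outer membrane, Samm50, the SAM core, fell (-0.51 ± 0.063; limma adjusted p = 0.000121). Its values were 11.11, 11.17 and 11.16 with DMSO and 10.69 and 10.58 with the inhibitor. The metaxins, partners of Samm50, did not move alike: Mtx1 lay at 10.28, 10.28 and 10.29 with DMSO and at 9.70 and 9.63 with the inhibitor, 1.53-fold lower (-0.62 ± 0.064; limma adjusted p = 3.55e-05). Mtx2 lay at 8.56, 8.67 and 8.40 with DMSO and slightly higher, at 8.77 and 8.70, with the inhibitor, without a call (0.19 ± 0.087; limma adjusted p = 0.109). Mtx2 passed as higher under 2 of the 18 alternatives of the closing section, among them without DMSO replicate 2 (adjusted p = 0.0392).

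Gfer, the sulfhydryl oxidase that recharges the disulfide relay, fell 1.42-fold (-0.51 ± 0.064; limma adjusted p = 0.000131), while Chchd4, the relay's receptor that it reoxidises, lay at the same mean of 10.16 in both groups (0.0 ± 0.075; limma adjusted p = 0.991). The subunits of the peptidase that cleaves presequences were not called. Pmpca had 9.16, 9.06 and 9.08 with DMSO and 9.27 and 9.17 with the inhibitor (0.12 ± 0.075; limma adjusted p = 0.234), and Pmpcb had 8.80, 8.93 and 8.80 against 9.01 and 8.91 (0.12 ± 0.069; limma adjusted p = 0.197). Oxa1l, which inserts proteins into the inner membrane from the matrix, fell slightly (-0.26 ± 0.075; limma adjusted p = 0.0174), a call that ended without inhibitor replicate 2 (0.116).

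The clear exception was Timmdc1. Its product is related in sequence to the TIM17, TIM22 and TIM23 proteins but is known as an assembly factor of respiratory complex I. It lay at 7.11, 7.19 and 7.12 with DMSO and at 7.82 and 7.92 with the inhibitor, 1.65-fold higher (0.73 ± 0.097; limma adjusted p = 0.0002), and returned to 6.99, 7.33 and 7.27 after release. The inhibitor arrays were above all 6 others.

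**Figure D2:**
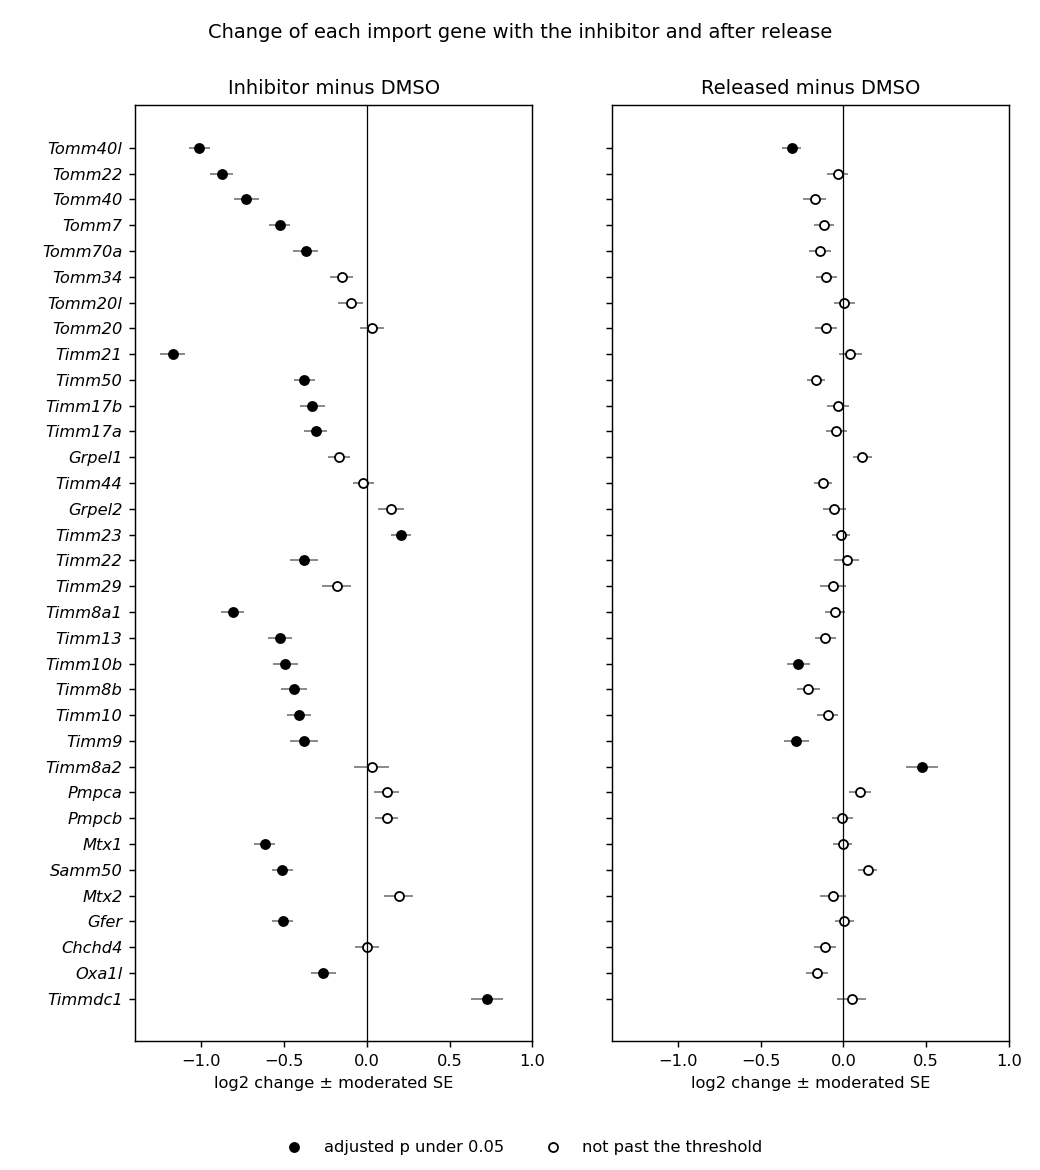
Fitted log2 change of each import gene with its moderated standard error (bars), inhibitor minus DMSO on the left and released minus DMSO on the right, 1 row per gene in the order of the plot by array. Filled points passed a limma adjusted p of 0.05: 20 lower and 2 higher on the left, 3 lower and 1 higher on the right.

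The promoters were searched for the E-box that MYC binds with MAX, CACGTG, which reads the same on both strands. RefSeq promoters (250 bases before to 50 after a start site, GRCm38.p6) were found for 30 of the 34 genes, all but Grpel2, Timm21, Tomm40l and Tomm7. The E-box was present in 5 of them (16.7%), Timm10, Timm8a1, Timm9, Tomm20 and Tomm20l, and in 8.09% of the 27025 genes of the table. Of these 5 genes 3 fell with the inhibitor, as did 17 of all 30 with a promoter, and the other two were not called. One of the 3, Timm9, changed by 0.12 in the other direction with the mean of its probe sets. For NRF1, a regulator of mitochondrial genes, only 1 fixed spelling of the core motif was searched, on both strands. That spelling was in 0 of the 30 and in 1.07% of all genes. Other spellings of the motif were not searched, so the count does not show that these promoters lack NRF1 motifs. A match describes letters and is not a site of binding, and its absence concerns this window only. The 250 bases before the start site are shown 5′ to 3′ on the gene's strand, with each E-box in capitals, for the 3 members with a promoter entry that fell most (Tomm22, Timm8a1 and Tomm40), for Tomm20, the highest member, which was not called, and, from 100 bases before to 5 after its start site, for Timm9, which holds 2 matches.
Tomm22, chr15:79670618-79670867, plus strand: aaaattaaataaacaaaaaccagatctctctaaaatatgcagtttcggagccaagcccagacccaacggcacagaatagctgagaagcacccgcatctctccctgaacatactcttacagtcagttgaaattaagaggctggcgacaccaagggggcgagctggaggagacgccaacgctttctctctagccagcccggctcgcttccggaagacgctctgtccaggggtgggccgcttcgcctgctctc
Timm8a1, chrX:134541671-134541920, minus strand: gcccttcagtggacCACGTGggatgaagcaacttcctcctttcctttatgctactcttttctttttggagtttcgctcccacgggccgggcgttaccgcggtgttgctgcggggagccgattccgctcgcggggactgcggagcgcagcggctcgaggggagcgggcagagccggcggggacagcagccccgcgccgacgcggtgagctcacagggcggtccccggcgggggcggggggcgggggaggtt
Tomm40, chr7:19715430-19715679, minus strand: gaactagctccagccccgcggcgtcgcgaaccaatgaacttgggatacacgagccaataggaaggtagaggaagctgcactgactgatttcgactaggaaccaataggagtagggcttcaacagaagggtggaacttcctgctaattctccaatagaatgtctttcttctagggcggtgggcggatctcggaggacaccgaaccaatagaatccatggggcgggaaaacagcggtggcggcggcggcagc
Tomm20, chr8:126945922-126946171, minus strand: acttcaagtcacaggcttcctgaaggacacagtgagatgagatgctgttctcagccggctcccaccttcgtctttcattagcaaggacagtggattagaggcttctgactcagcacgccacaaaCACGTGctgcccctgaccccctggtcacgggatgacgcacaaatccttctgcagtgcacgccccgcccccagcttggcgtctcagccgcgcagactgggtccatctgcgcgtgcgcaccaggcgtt
Timm9, chr12:71136671-71136775, minus strand: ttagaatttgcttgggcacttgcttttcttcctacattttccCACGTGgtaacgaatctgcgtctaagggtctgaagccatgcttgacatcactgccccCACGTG
Tomm22 and Tomm40 show no E-box in these letters, in this stretch Timm8a1 holds 1 that starts 236 bases before the start site, and Tomm20 holds 1 that starts 126 bases before it. In Timm9 the matches start 58 bases before the start site and at the base just before it.

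After the inhibitor was withdrawn for 48 h, most of the lowered import genes were higher again. No DMSO or inhibitor group was kept for these further 48 h. Withdrawal and longer culture therefore cannot be told apart, either here or in the comparison of released with DMSO cells. Between released and inhibitor-treated arrays 20 of the 34 rose and 3 fell, 67.6% in all, where 41.9% of all genes tested passed (22.7% higher and 19.2% lower). The median log2 change was 0.23, against 0.06 over all genes. The released and inhibitor arrays did not overlap for 21 genes that were higher (36.2% of all genes) and 7 that were lower (25.7% of all genes). Without low-level genes 24 of 33 passed, beside 58.8% of the genes left (31.4% higher and 27.4% lower). This comparison shares its inhibitor arrays with the one above, so the reverse sign is no independent support. Of the 20 genes that had fallen, 18 were called higher after release, and for the same number all 3 released arrays lay above both inhibitor arrays. These 20 were chosen as low on the same inhibitor arrays. The matching share among all genes that fell was not counted, so 18 of 20 cannot be called a trait particular to import genes.

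Timm21 lay at 6.99, 7.10 and 7.08 on the released arrays, 1.22 ± 0.076 above the inhibitor arrays on the log2 scale (limma adjusted p = 1.16e-06). Tomm22 had 10.09, 10.16 and 10.20 (0.84 ± 0.071), Timm8a1 9.60, 9.65 and 9.63 (0.76 ± 0.068) and Mtx1 10.26, 10.35 and 10.23 (0.61 ± 0.064). The released arrays of these 4 genes overlapped the DMSO arrays. Samm50, at 11.26, 11.32 and 11.31, was 0.66 ± 0.063 above the inhibitor arrays and lay above all DMSO arrays too (0.15 ± 0.057), without a call against DMSO (limma adjusted p = 0.156). Of the genes that had not been called with the inhibitor, 2 rose on release, Grpel1 to 9.59, 9.61 and 9.61 (0.28 ± 0.066; limma adjusted p = 0.00642) and Timm8a2, whose values are uncertain, to 5.37, 5.71 and 5.61 (0.45 ± 0.11; limma adjusted p = 0.00747).

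The 3 genes that fell on release were Timmdc1 (-0.68 ± 0.097), Timm23, now at 11.05, 11.06 and 11.07 (-0.22 ± 0.061; limma adjusted p = 0.0147), and Mtx2, at 8.40, 8.50 and 8.54 (-0.26 ± 0.087; limma adjusted p = 0.0388). Grpel2, at 8.49, 8.53 and 8.63, was also below the inhibitor arrays but was not called (-0.20 ± 0.078; limma adjusted p = 0.0672). Pmpca, at 9.14, 9.31 and 9.15, and Pmpcb, at 8.81, 8.83 and 8.87, were not called.

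Several of these calls ended when 1 array was left out. Without inhibitor replicate 2 the count of called genes went from 23 to 14, and 9 calls were lost: Grpel1 (adjusted p = 0.0613), Mtx2 (0.0916), Timm10 (0.0508), Timm10b (0.223), Timm17a (0.11), Timm50 (0.101), Timm8a2 (0.0732), Timm8b (0.241) and Tomm70a (0.0742). Without inhibitor replicate 1 it was 16, with calls lost for Mtx2 (0.177), Timm10b (0.0632), Timm17b (0.0761), Timm23 (0.0931), Timm50 (0.0583), Timm8b (0.0527) and Tomm70a (0.165). Mtx2, Timm10b and Timm8b also lost their calls without DMSO replicate 1 (0.0527, 0.051 and 0.0548) and without released replicate 1 (0.108, 0.0878 and 0.103). Without DMSO replicate 3 Timm10b was lost (0.0514), and without released replicate 2 Mtx2 (0.0666) and Tomm70a (0.0988). Without released replicate 3 Timm10b (0.124), Timm50 (0.0611), Timm8b (0.117) and Tomm70a (0.0554) were lost. Without DMSO replicate 2 Grpel2 passed (0.0399).

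Few import genes differed between released and DMSO cells. Of the 34 genes 3 were called lower and 1 higher, 11.8% in all, near the 8.66% of all genes tested that passed (4.01% lower and 4.66% higher). Without low-level genes it was 4 of 33, beside 16.4% of the genes left (7.81% lower and 8.57% higher). The median log2 difference was -0.06, against 0.0018 over all genes. For 12 genes all released arrays lay below all DMSO arrays, which held for 14% of all genes, and for 3 they lay above, which held for 14.6%. Over the 20 genes that had fallen, the median log2 difference from DMSO was -0.50 with the inhibitor and -0.10 after release. These genes were chosen as lower than the same DMSO arrays, which pulls both medians down. The matching medians over all genes that fell were not computed.

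Tomm40l kept the clearest difference from DMSO. It stood at 7.94, 7.91 and 8.01 after release, between the inhibitor and DMSO arrays and apart from both (-0.31 ± 0.057 against DMSO; limma adjusted p = 0.00914). Its sister gene Tomm40, at 10.07, 10.00 and 10.08, also lay below all DMSO arrays without a call (-0.17 ± 0.069; limma adjusted p = 0.172).

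The carrier chaperone genes Timm9 and Timm10b were the other two called lower. Timm9 stayed at 6.93, 6.79 and 6.85, within the reach of the inhibitor arrays (-0.29 ± 0.076; limma adjusted p = 0.0481), and Timm10b stood at 9.12, 9.01 and 9.18 (-0.27 ± 0.068; limma adjusted p = 0.0379). Both calls are borderline. That of Timm9 ended without DMSO replicate 1 (adjusted p = 0.104) or 2 (0.135), without either inhibitor replicate (0.063 each) and without released replicate 1 (0.0677), 2 (0.147) or 3 (0.121). The call of Timm10b ended without DMSO replicate 1 (0.0699), 2 (0.114) or 3 (0.0709), without either inhibitor replicate (0.051 each) and without released replicate 1 (0.0893) or 2 (0.125). The count of called genes was 1 or 2 whichever array was left out. Timm8b, at 9.88, 9.73 and 9.90, and Timm10, at 9.61, 9.75 and 9.73, were below all DMSO arrays as well, Timm10 by less than the rounding of its nearest values, but were not called (limma adjusted p = 0.10 and 0.433).

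The gene called higher than DMSO after release was Timm8a2, at 5.37, 5.71 and 5.61 (0.48 ± 0.096; limma adjusted p = 0.0149). All released arrays lay above the 5 others. The call ended without DMSO replicate 3 (adjusted p = 0.0525) and without released replicate 2 (0.0546) or 3 (0.0527), and the probe set may not be specific, as said above. Tomm20 lay at 12.34, 12.51 and 12.51 and Tomm20l at 3.63, 3.52 and 3.60 after release. Timm17a, at 9.93, 9.97 and 10.03, and Timm17b, at 8.37, 8.43 and 8.47, overlapped DMSO.

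Related genes were compared by the difference in their log2 changes, in 8 pairs and 3 comparisons, 24 tests in all. With 2 against 3 or 3 against 3 arrays a two-sided exact permutation test cannot give less than p = 0.10, so none could pass 0.05, and the smallest adjusted p over the 24 was 0.218. The widest split was that of the metaxins, where the change of Mtx1 with the inhibitor was 0.81 lower than that of Mtx2 (exact p = 0.10) and its change on release 0.87 higher (exact p = 0.10). Mtx2 has only 1 probe set, of the same type as that of Timm8a2, which can match more than 1 transcript. For the motor exchange factors the change of Grpel1 with the inhibitor was 0.31 lower than that of Grpel2 (exact p = 0.10), and on release 0.48 higher (exact p = 0.10). Timm8a1 fell by 0.37 more than Timm8b with the inhibitor (exact p = 0.10).

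The pore genes differed less. The inhibitor change of Tomm40 was 0.28 higher than that of Tomm40l (exact p = 0.10), and for Timm10 and Timm10b the difference was 0.08 (exact p = 0.10). Between Timm17a and Timm17b it was 0.02 (exact p = 0.90), with a standard deviation of 0.10 between arrays, and between Pmpca and Pmpcb it was -0.00092 (exact p = 1). For Tomm20 and Tomm20l the difference of 0.13 (exact p = 0.40) was about as large as the standard deviation between arrays of 0.12.

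Of the 34 genes, 20 have more than 1 probe set, and 69 probe sets were measured in all. Both probe sets of Tomm22 (-0.88 and -0.95), Mtx1 (-0.62 and -0.65), Timm8a1 (-0.81 and -0.76) and Tomm40l (-1.01 and -1.36) gave like changes with the inhibitor. Timm9 gave called changes of opposite sign, -0.38 at the probe set used and 0.62 at a dimmer one with a mean log2 level of 5.28. With the mean of its probe sets Timm9 changed by 0.12 ± 0.11 (limma adjusted p = 0.433). Tomm20 was called lower at its 2 dimmest of 6 probe sets (-0.43 and -0.70), and its mean over probe sets fell (-0.20 ± 0.054; limma adjusted p = 0.0147). On release Tomm20 gave called changes of opposite sign, -0.24 at a brighter probe set and 0.26 and 0.61 at its 2 dimmest. The second probe set of Grpel2 rose (0.50), that of Pmpca (-0.27) and that of Timm29 (-0.34) fell. Against the inhibitor arrays, release reversed these: Grpel2 was called lower there (-0.51), Pmpca (0.44) and Timm29 (0.36) higher. With the mean of its probe sets Pmpca was called higher on release (0.21; limma adjusted p = 0.0291). Tomm70a is measured by 5 probe sets, and the one nearest in level to that used changed by -0.09 (limma adjusted p = 0.41). With their mean Tomm70a fell by 0.19 on the log2 scale with the inhibitor (limma adjusted p = 0.0266) and lost its call on release (0.03; limma adjusted p = 0.732). With the mean of its probe sets Timm22 lost its call (-0.21; limma adjusted p = 0.0795). The probe sets of Samm50, Timm17b, Tomm7 and Mtx2 that were used can also match other transcripts.

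**Figure D3:**
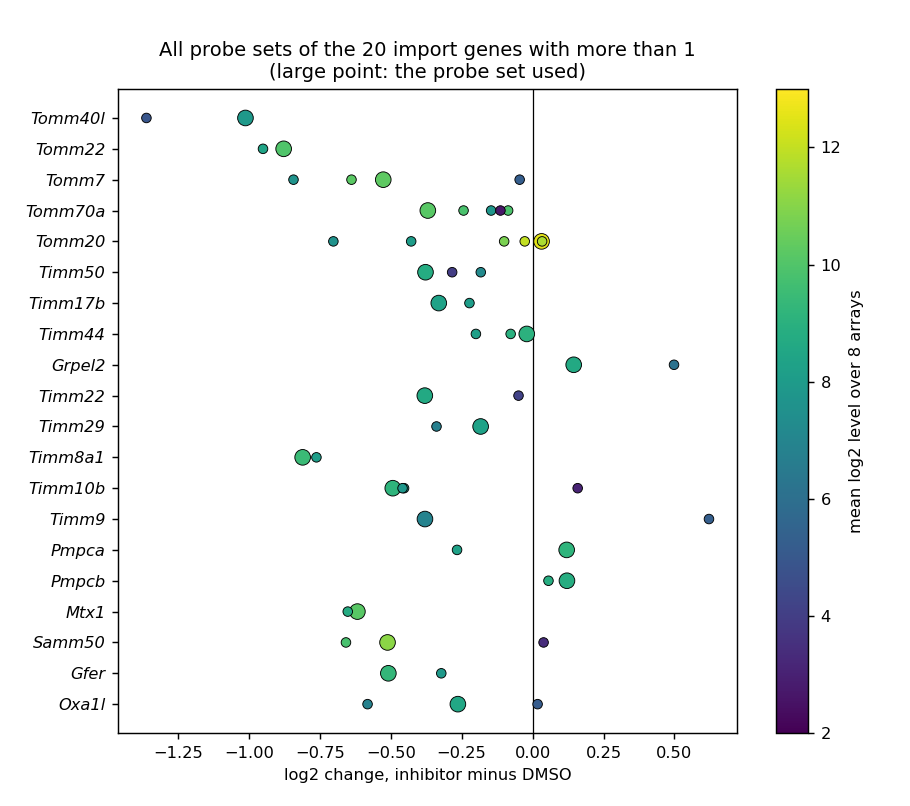
Log2 change with the inhibitor at every probe set of the 20 import genes that have more than 1, coloured by mean log2 level over 8 arrays; large points are the probe sets used. For most genes the points lie on 1 side of 0, while Timm9 has points at -0.38 and 0.62.

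Of 11 measured import partners outside the list, 2 rose and 4 fell with the inhibitor, a share of 54.5%, between the 41.5% of all genes and the 58% of genes without the low-level ones. Hspa9, the matrix chaperone of the heat shock protein family that pulls proteins in through TIM23, rose 1.50-fold, from 11.43, 11.45 and 11.40 to 12.02 and 12.00 (0.58 ± 0.067; limma adjusted p = 7.11e-05). Mtx3, a further metaxin, rose too (0.54 ± 0.086). Romo1, a small TIM23 subunit (-0.46 ± 0.078), Aifm1, which tethers Chchd4 (-0.49 ± 0.064), and Agk, a subunit of TIM22 (-0.27 ± 0.066), fell. The motor cochaperone gene Pam16 was not called (0.01 ± 0.060; limma adjusted p = 0.942). Dnajc19 has only probe sets with several symbols and was not analysed here.

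Of 19 genes that fold, process and degrade imported proteins 6 were called higher and 5 lower, 57.9% in all, near the 58% of genes without the low-level ones. The matrix protease gene Lonp1 (0.48 ± 0.064), the unfoldase gene Clpx (0.41 ± 0.069) and the matrix cochaperone gene Dnaja3 (0.41 ± 0.068) rose. The prohibitin gene Phb2 (-0.78 ± 0.073), the cochaperonin gene Hspe1 (-0.28 ± 0.074) and Trap1, a mitochondrial relative of HSP90 (-0.26 ± 0.079), fell. Among substrates of the disulfide relay 8 of 15 fell and 2 rose, where 22.3% of all genes were lower and 19.2% higher (30.6% and 27.4% without low-level genes). Uqcrh, a hinge subunit of complex III, fell 3.28-fold (-1.71 ± 0.074), Cmc2 1.97-fold (-0.98 ± 0.084) and the cytochrome oxidase subunit gene Cox6b1 1.66-fold (-0.73 ± 0.060), while Cmc1 rose 1.82-fold (0.86 ± 0.076) and Chchd10 slightly (0.25 ± 0.064).

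Other groups of nuclear genes for mitochondria were lower with the inhibitor as well. Of 76 mitochondrial ribosomal protein genes 56 fell and 1 rose, with a median log2 change of -0.41, and of 83 genes of the respiratory chain and ATP synthase 61 fell and 2 rose, with a median of -0.39, beside 20 and 2 of 34 and -0.35 for the import genes and 22.3% lower and 19.2% higher over all genes. After release 3 of the 76 and 4 of the 83 were called lower than DMSO, with medians of -0.09 in both groups, and 33 and 38 genes had all released arrays below all DMSO arrays, as 14% of all genes did. The respiratory list and the disulfide relay substrates share Uqcrh, Cox6b1, Ndufa8, Ndufb7 and Ndufs5, which are counted in both. Differences between these lists were not tested.

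**Figure D4:**
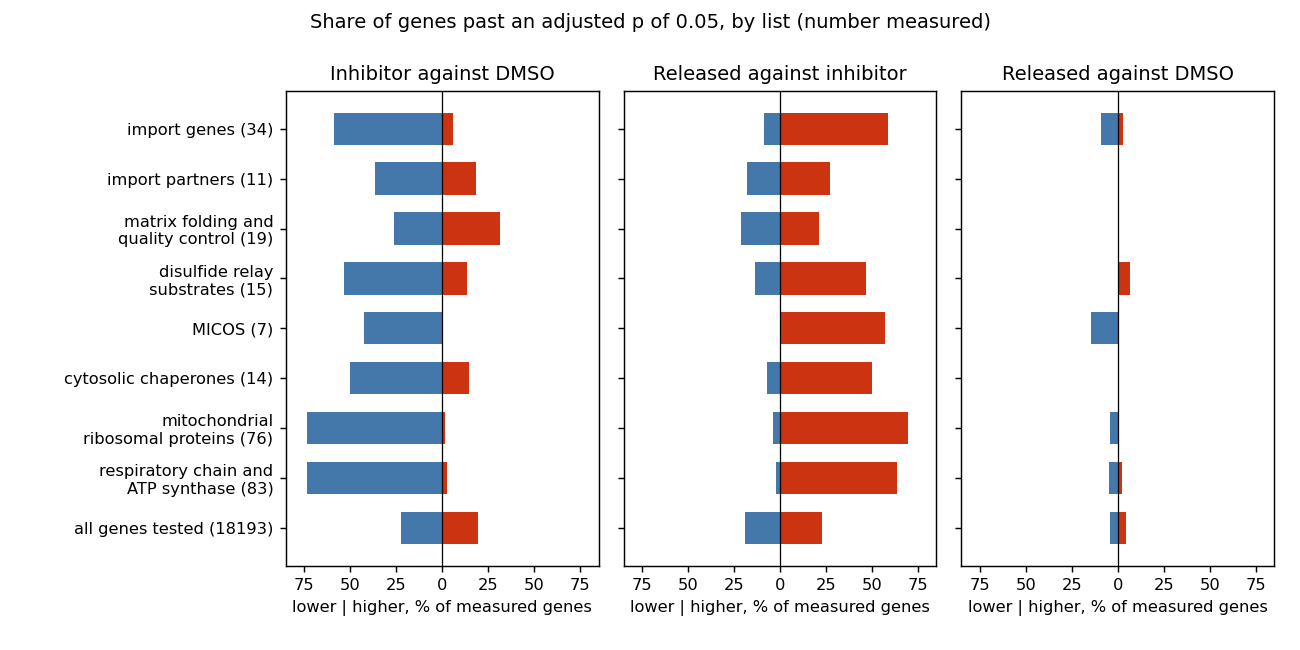
Share of the measured genes of each list that passed a limma adjusted p of 0.05, lower to the left in blue and higher to the right in red, for the 3 comparisons. Of the import genes 20 of 34 were lower with the inhibitor and 20 of 34 higher on release, and the bottom bar gives the same over all 18193 genes.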

How the data were processed

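Total RNA was hybridised to Affymetrix GeneChip arrays, 1 per sample. The deposited values are log2 expression, which the authors made with RMA; per the submitters' processing notes the tools were oligo (1.32.0), RMA and limma (3.2.15). The log2 scale was read from the values, 1.69 to 13.76. RMA corrects background, equalises the arrays' distributions and summarises probe sets. Of 45101 probe sets, 34945 had 1 symbol in the platform annotation, 932 several, 9160 were not named here and 64 were controls; gene numbers of 34741 were found in RefSeq (GRCm38.p6), which changed 0 symbols. The highest probe set was kept for each of the 9010 genes with more than 1. All 18193 genes were fitted with limma 3.58.1 in R 4.3.3 (lmFit, eBayes; 1 mean per group, 8 arrays, 5 residual degrees of freedom), with two-sided p-values adjusted by Benjamini-Hochberg over all genes and a threshold of 0.05. Python 3.11.15, pandas 2.3.3 and matplotlib 3.10.9 read tables and drew figures.

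The members, lists and tests were chosen with earlier results of these data known. Named genes were all members; values on every array were given for the 6 largest called rises and the 6 largest called falls of each comparison and for the 8 pairs; of each neighbouring list up to 3 called genes per direction with the smallest p, and always Hspa9, Dnajc19, Pam16 and Romo1. Comparisons share arrays. The fit was tested on simulated data. Of simulated log2 changes of 0.5 it recovered 71% with the inhibitor, 61% on release and 78% between released and DMSO arrays. For changes of 1 these shares were 99%, 93% and 98%. Of the calls 3.4%, 6.1% and 5.9% were false. The share of changed genes in that test was not matched to the real comparisons. The rates therefore describe the simulated data only and may differ for the real arrays. A gene that was not called may still have changed. Array data have no depth; array number limits the precision. Alternatives are given in the closing section.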

Additional observations from a re-analysis of the deposited data

How the results depend on the processing

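Across 18 alternatives (other summaries of probe sets, a filter on level, other normalization, variance models and thresholds, the replicate block, and leaving out each array), the number of import genes called with the inhibitor was 17 to 23 without 1 array and 20 to 26 otherwise, and on release against the inhibitor arrays 14 to 24 without 1 array and 16 to 26 otherwise. Calls held under all 18 for 16 of 22 genes and 12 of 23 genes. Between released and DMSO arrays, where 4 were called, the count was 2 with the mean of all probe sets, with only the arrays compared and with the replicate block, 1 at an adjusted p under 0.01, 8 with a variance trend and robust fitting, and 1 to 2 without 1 array. Of these 4 calls that of Tomm40l held under all 18. Over all genes, 1576 were called there, 2641 with the variance trend, 657 at an adjusted p under 0.01, and 1000 to 1344 without 1 array. With the mean of all probe sets, the sign turned for Timm9 (0.12), Tomm20 (-0.20) and Pmpca (-0.07) with the inhibitor, for Pmpca (0.21), Timm9 (-0.20) and Tomm20 (0.06) on release, and for Gfer (-0.06) between released and DMSO arrays; the probe sets of these genes differ. That setting also ended the release calls of Timm10b and Tomm70a, and it added release calls for Pmpca, Oxa1l and Timm29 (higher) and Grpel2 (lower). Where every probe set was tested, a gene was counted as called if any of its probe sets passed. The calls that held under all 18 were judged in that setting by the probe set used, so they do not cover the other probe sets. Where leaving out an array left 1 inhibitor array, it was assumed to vary like the other groups. Deviations of same-numbered arrays from their group means correlated at -0.06 to 0.01. In groups of 2 or 3 arrays such values cannot show whether replicate numbers pair the samples. With the replicate block 20, 19 and 2 import genes were called in the 3 comparisons. Dim genes such as Tomm20l are limited by the background signal.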

Other observations

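Of 14 measured genes of cytosolic chaperones that keep precursors unfolded, 7 fell and 2 rose with the inhibitor, 64.3% in all, beside 41.5% of all genes and 58% of genes without the low-level ones. The heat shock gene Hspa1b fell 3.06-fold (-1.61 ± 0.099), though it cannot be told apart with certainty from its close copy Hspa1a, and Stip1, a scaffold between HSP70 and HSP90, fell 1.68-fold (-0.75 ± 0.063), as did Dnaja1, a cochaperone of HSP70 (-0.40 ± 0.059). Dnaja4 rose 1.97-fold from a low level (0.98 ± 0.13). After release 0 of the 14 passed against DMSO at a limma adjusted p of 0.05. In MICOS, the complex that shapes cristae, 3 of 7 genes fell and 0 rose with the inhibitor, a share of 42.9%, near that of all genes, namely Apoo (-0.65 ± 0.080), Chchd6 (-0.44 ± 0.095) and Micos13 (-0.35 ± 0.093), and Apoo was still lower than DMSO after release (-0.28; limma adjusted p = 0.0402).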
